A study of Mus musculus with 10 samples.

Results

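The HoxB cluster genes Hoxb1 to Hoxb9 were followed through ChIP-seq of mouse embryonic stem (ES) cells. They were taken by symbol from the tables of reads per gene, and all 9 were found among the 24500 genes listed. Chromatin was immunoprecipitated with an antibody against H3K27me3 (histone H3 trimethylated on lysine 27) or against EZH2, the enzyme that places this mark, with 2 libraries for each antibody and genotype. Chromatin without immunoprecipitation (input) was sequenced as 1 library for each genotype, giving 10 libraries in all. The control was E14, a mouse ES cell line, labelled wild-type. The mutant came from E14 and is called ex14D-Ezh2 or ex14D. In this line CRISPR-Cas9 in/dels disrupted exon 14 of Ezh2 and shifted the reading frame, so that only the splice form without exon 14 was left functional. The titles of these libraries read Ezh2KO, while the genotype field gives a knockout of exon 14. The libraries were grouped by that field, and the study also worked with a separate Ezh2 knockout line, which these counts cannot tell from ex14D. The strain is given as 12910la for both genotypes. Neither the labels nor the methods say which clone was used, nor whether libraries of 1 genotype came from separate cultures. The p-values therefore measure the spread between libraries, which may be technical.

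Hox genes encode homeodomain transcription factors that give cells along the head-to-tail axis their position. In each cluster they lie in 1 direction, and genes at the 3′ end are switched on earlier and further towards the head than genes at the 5′ end, a property called colinearity. In ES cells the clusters are silent and covered by Polycomb repressive complex 2 (PRC2), whose catalytic subunit is EZH1 or EZH2, and by H3K27me3. Retinoic acid and posterior signals open them from the 3′ end during differentiation.

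In the mouse reference genome GRCm38 the 9 genes lie on the forward strand of chromosome 11, from Hoxb9 with its start at 96271330 to Hoxb1 with its start at 96365758. The starts of neighbours were 4.44 kb (Hoxb6 to Hoxb5) to 28.5 kb (Hoxb3 to Hoxb2) apart, so the 1 kb promoter windows did not overlap each other. PRC2 is known to be recruited to DNA rich in the dinucleotide CG, which reads the same on both strands. Each sequence shown is the first of the 30-base stretches with the most CG in the 500 bases upstream of the start, taken from the GRCm38 genome of RefSeq, 5′ to 3′ on the forward strand with CG in capitals. Hoxb9 and Hoxb5 stand for the CG-rich 5′ side of the cluster, Hoxb3 and Hoxb1 for the 3′ side, and Hoxb3 and Hoxb1 also had the largest and smallest estimates of change described below.
Hoxb9, chr11:96271232-96271261: atgCGgtgaggaCGgatgacagCGCGagCG
Hoxb5, chr11:96303202-96303231: CGaagcCGccatggCGgcctgCGgccCGCG
Hoxb3, chr11:96323096-96323125: gaagaggaggaggaggcCGaggaCGgacCG
Hoxb1, chr11:96365698-96365727: ggggatCGctggCGgggccaagctggccCG
The promoters were not alike in this respect. The whole 1 kb window held 78 CG at Hoxb9, 71 at Hoxb6, 66 at Hoxb7 and 65 at Hoxb5. It held 38 at Hoxb8, 36 at both Hoxb1 and Hoxb4, 26 at Hoxb2 and 16 at Hoxb3. Over the 24338 promoters that could be placed on the genome the median was 40. A window with at least as many CG as Hoxb9 was found at 19.0% of promoters, and one with at least as many as Hoxb3 at 69.8%. The ratio of CG found to CG expected from base composition was 0.74 to 0.88 at the 5 promoters from Hoxb9 to Hoxb5 and 0.37 to 0.49 at the 4 from Hoxb4 to Hoxb1, against a median of 0.54 over all promoters.

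Reads counted in promoter windows numbered 594289 and 937207 in the control H3K27me3 libraries, 1450937 and 1248018 in ex14D, and 409371 and 416778 in the control and ex14D inputs. The ex14D libraries were deeper and had more of their reads in promoter windows, 7.58% and 6.86% against 5.65% and 5.98% in control. The part of these differences in the results was not tested. Reads are given as CPM, that is, scaled to the same total of promoter reads in each library. CPM is a relative measure, and without a spiked-in standard the amount of the mark per cell cannot be read from it. The promoters of 8 ES cell genes (among them Pou5f1, Nanog and Sox2) were also looked at, as a description. Of these, 7 were under 2-fold over input in all 4 H3K27me3 libraries. The exception, Klf4, had log2 values over input of 1.81 and 1.27 in control and 0.23 and 0.14 in ex14D. The share of all promoters under 2-fold is not given here, so the count is not read as evidence of the cell type.

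All 9 HoxB promoters carried H3K27me3 in both genotypes, and the level in control differed between them. Each was at least 2-fold over input in all 4 libraries, which held for 8.18% of the 24500 promoters. Enrichment was computed as log2 of CPM plus 1 over input CPM plus 1. Its median over the 9 promoters was 3.27 in control and 4.58 in ex14D. Hoxb9, which with its paralogues patterns the thoracic ribs, was the most enriched of the 9 in every library. Its value was 4.41 and 4.24 in the control libraries, where it ranked 35th and 29th among all promoters, and 5.51 and 5.75 in ex14D, where it ranked 10th and 9th. Hoxb4, a gene of the posterior hindbrain known for expanding blood stem cells, was the lowest by the mean of each genotype, with 2.49 ± 0.21 (SD, n = 2) in control and 3.55 ± 0.19 (SD, n = 2) in ex14D. Among the 1% of promoters with the highest enrichment, 3 of the 9 were found in each control library, and 6 and 7 in the ex14D libraries. The inputs gave only 13 to 38 reads per window, which limits the order. At Hoxb5 the inputs held 30 reads in control (95% Poisson interval 20.2 to 42.8) and 13 in ex14D (6.92 to 22.2), and these intervals, like all counting intervals, cover counting error only.

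CPM without input gave an order that does not rest on the thin inputs, and all windows are 1 kb long. In control the order of mean CPM was Hoxb9, Hoxb8, Hoxb6, Hoxb7, Hoxb2, Hoxb5, Hoxb1, Hoxb3 and Hoxb4, from 754 ± 63.4 (SD, n = 2) to 240 ± 34.4 (SD, n = 2). The libraries of neighbours overlapped except between Hoxb2 and Hoxb5, Hoxb5 and Hoxb1, and Hoxb3 and Hoxb4. In ex14D the order was Hoxb6, Hoxb8, Hoxb9, Hoxb7, Hoxb2, Hoxb3, Hoxb5, Hoxb1 and Hoxb4, and only Hoxb5 and Hoxb1, and Hoxb1 and Hoxb4, were separate. In both genotypes the 4 promoters at the 5′ end from Hoxb9 to Hoxb6 were thus above Hoxb5, Hoxb4 and Hoxb1 by their means, while Hoxb2 near the 3′ end was also high. Across the 9 promoters the enrichment in control and the CG ratio had a Pearson correlation of 0.52, given as a description because the promoters share their libraries and lie in 1 cluster.

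**Figure D1:**
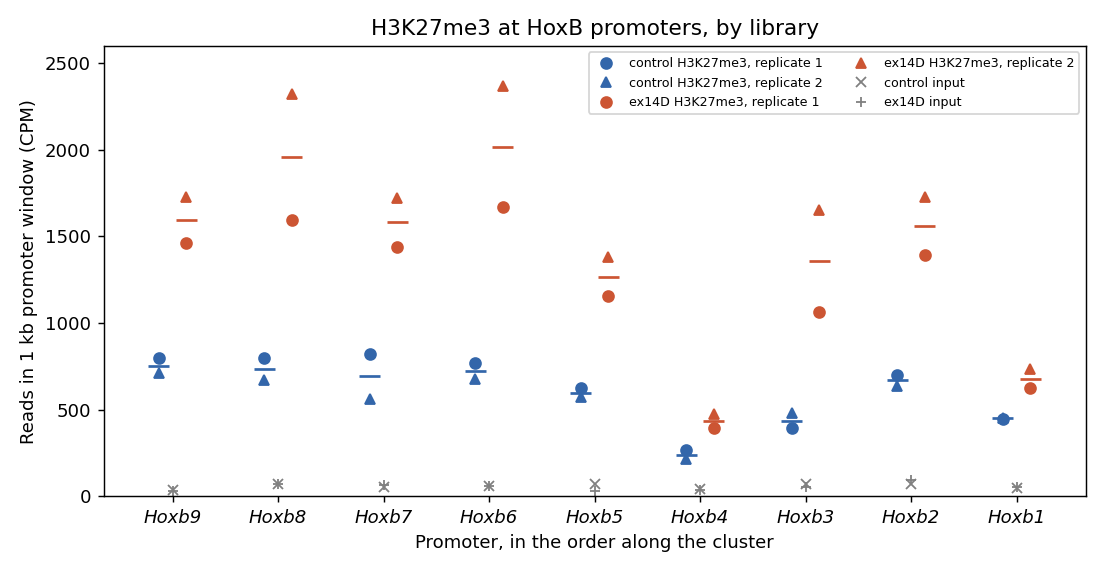
H3K27me3 reads in the 1 kb promoter window of each HoxB gene, in CPM, with promoters in their order along the chromosome. Circles and triangles are the replicate 1 and 2 libraries (blue control, red ex14D), horizontal bars are the means of 2 libraries, and grey marks are the inputs. At each promoter both ex14D points lie above both control points, and Hoxb4 is the lowest in all 4 libraries.

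H3K27me3 reads at HoxB promoters were higher in ex14D than in control, relative to the other promoters of a library. The paper reports less H3K27me3 and less EZH2 protein in mutant lines by Western blot, and less EZH2 at target genes by ChIP-seq. It also reports less H3K27me3 by ChIP-PCR at Hoxa10 and Hoxd9. The relative rise here was not tested against those measures and does not give a gain of the mark per cell. Together the 9 promoters held 3338 and 4664 reads in control and 15665 and 17600 in ex14D, which was 0.562% and 0.498% of promoter reads against 1.08% and 1.41%. The inputs did not differ in this way, with 215 reads (0.0525%) in control and 204 (0.0489%) in ex14D. The quasi-likelihood test of edgeR was applied after TMM scaling, with p-values adjusted by the Benjamini-Hochberg method over 14883 promoters and a threshold of 0.05. All 9 promoters passed edgeR's filter on low counts. All 9 were called higher in ex14D, whereas 5.83% of the promoters tested were called higher and 3.25% lower. In CPM, both ex14D libraries lay above both control libraries at all 9, against 9.1% of the promoters tested. The median log2 fold change of the 9 was 1.64, and that of all promoters tested was -0.03. When libraries were scaled by their size only, these medians were 1.20 and -0.47, so the distance between them was 1.67 under both. In both control libraries 6 of the 9 were at least 8-fold over input, as were 1.66% of all promoters. The 401 promoters of that kind that were tested, HoxB included, had a median of 1.00.

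The genes at the 3′ end, Hoxb1 to Hoxb4, are expressed in the hindbrain and held both the smallest and the largest change. Hoxb1, which gives a hindbrain segment and its facial motor neurons their identity, had 446 and 455 CPM in control and 623 and 733 CPM in ex14D. The groups did not overlap, and the log2 fold change of 1.04 (SE 0.20, edgeR, Benjamini-Hochberg adjusted p = 0.000689) was the smallest of the 9. Fold changes are TMM-scaled and the CPM are not, so at all 9 the CPM differ by less. For Hoxb1 the mean CPM differed 1.51-fold, and with library size only the log2 fold change was 0.59 (edgeR, adjusted p = 0.0266). Hoxb2, a gene next to Hoxb1 that is activated by Egr2 and by Hoxb1 protein in the hindbrain, had 702 and 638 CPM in control. In ex14D it had 1392 and 1726 CPM. Its lower ex14D library was 1.98-fold above its higher control library, and the log2 fold change was 1.67 (SE 0.21, edgeR, adjusted p = 3.78e-06). Hoxb3, which acts in the hindbrain and in the development of the thyroid and parathyroid, had 392 and 478 CPM in control and 1063 and 1650 CPM in ex14D. It had the largest estimate of the cluster, 2.09 (SE 0.23, edgeR, adjusted p = 1.81e-06). This estimate was 4.25-fold, against 3.12-fold by mean CPM without TMM, and the 24th largest among the 14883 promoters. Without control replicate 1 it was 1.93, below Hoxb6 (2.00) and Hoxb8 (1.97), and after subtraction of the input ratio it was 2.39, below Hoxb5 (2.74). Hoxb4 stayed the lowest of the 9, with 264 and 216 CPM in control and 395 and 474 CPM in ex14D. Its log2 fold change was 1.31 (SE 0.21, edgeR, adjusted p = 8.14e-05). Without control replicate 2, when 0.971% of promoters were called higher, Hoxb1 and Hoxb4 were at 1.01 and 1.12 and no longer past the threshold (edgeR, adjusted p = 0.0687 and 0.0634).

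The genes from Hoxb5 to Hoxb9 act further back, in the spinal cord, trunk skeleton and other trunk tissues. Their log2 fold changes after TMM lay between those of Hoxb1 and Hoxb3. Hoxb5, needed in the neural crest that forms the enteric nervous system, had 624 and 573 CPM in control and 1156 and 1381 CPM in ex14D, with a log2 fold change of 1.53 (SE 0.20, edgeR, adjusted p = 8.75e-06). Hoxb6, a gene of the lateral plate and thoracic skeleton, had 769 and 678 CPM in control and 1669 and 2368 CPM in ex14D. The replicate 2 value was the highest of any HoxB promoter in any library, and the change was 1.93 (SE 0.22, edgeR, adjusted p = 1.81e-06). Hoxb7, whose regulatory DNA is widely used to drive transgenes in the ureteric bud, had 823 and 560 CPM in control and 1441 and 1722 CPM in ex14D. This was the widest gap between control libraries among the 9, and the change was 1.64 (SE 0.22, edgeR, adjusted p = 8.79e-06). Hoxb8, used to hold blood progenitors in culture in an immature state, had 798 and 670 CPM in control and 1594 and 2320 CPM in ex14D. Its change was 1.87 (SE 0.22, edgeR, adjusted p = 2.46e-06), and without control replicate 2 it was 1.70 and missed the threshold (edgeR, adjusted p = 0.0504). Hoxb9 had 799 and 710 CPM in control and 1463 and 1728 CPM in ex14D, and a change of 1.53 (SE 0.20, edgeR, adjusted p = 8.79e-06), so the promoter with the highest enrichment did not have the highest change. Of the 9 promoters, 7 were among the 200 largest changes of the 14883 and 3 (Hoxb3, Hoxb6 and Hoxb8) among the first 100. Across the 9, the log2 fold change had a Pearson correlation of 0.02 with the enrichment in control and of 0.16 with the CG ratio, again as a description.

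**Figure D2:**
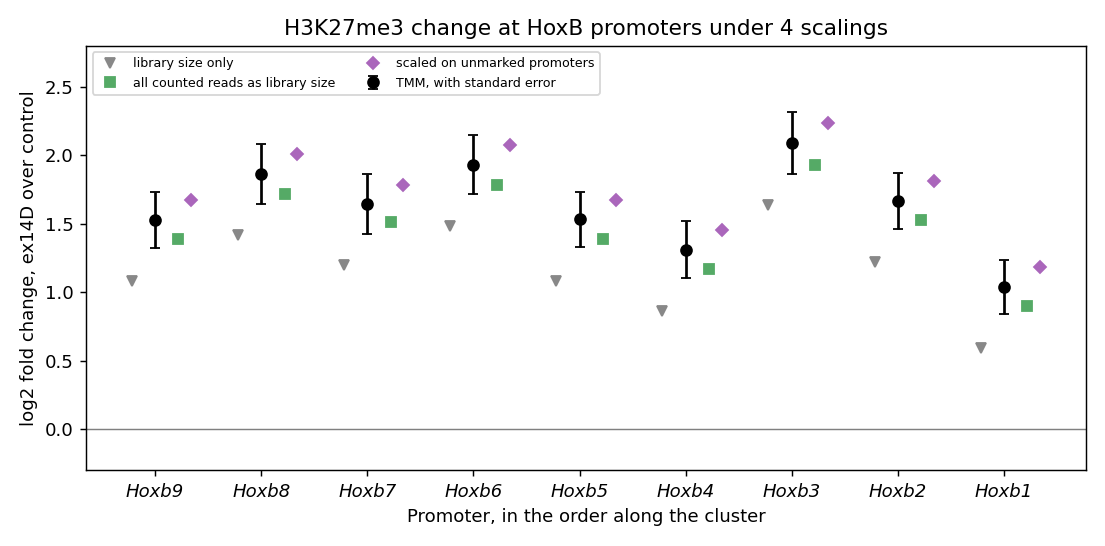
log2 fold change of H3K27me3 reads, ex14D over control, at each HoxB promoter in its order along the chromosome. Black points with bars are edgeR's estimate after TMM with its standard error, and the other marks are the same estimate under 3 other scalings. A scaling moves all 9 promoters together, every mark stays above 0, and Hoxb3 is the highest and Hoxb1 the lowest under each.

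The division of H3K27me3 reads among the promoters also differed between genotypes, a measure that does not depend on the scaling of libraries. Hoxb1 held 7.94% and 9.13% of the reads of the 9 promoters in control and 5.77% and 5.20% in ex14D. Hoxb3 held 6.98% and 9.61% in control and 9.84% and 11.7% in ex14D. Hoxb1 was thus lower and Hoxb3 higher in both ex14D libraries, although Hoxb3 in control replicate 2 lay close to ex14D replicate 1. The reads at Hoxb3 were 0.879 and 1.05 times those at Hoxb1 in control and 1.71 and 2.25 times in ex14D. Hoxb6 held 13.7% and 13.6% in control against 15.5% and 16.8% in ex14D, and Hoxb8 held 14.2% and 13.5% against 14.8% and 16.5%. In all, 3 promoters (Hoxb3, Hoxb6 and Hoxb8) had higher shares and 4 (Hoxb1, Hoxb4, Hoxb5 and Hoxb9) lower shares in both ex14D libraries, and at Hoxb2 and Hoxb7 the genotypes overlapped. These shares are a description, since they sum to 100 and an exact permutation of 2 against 2 libraries cannot give a two-sided p below 0.333. The same count for other clusters is not given here, so the numbers are not read as particular to HoxB.

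**Figure D3:**
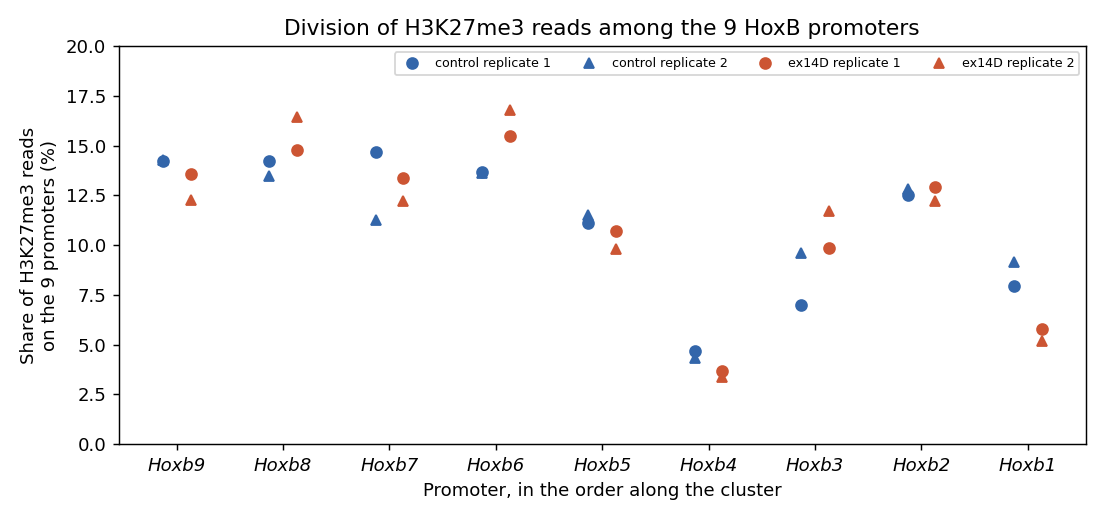
Share of the H3K27me3 reads of the 9 HoxB promoters that fell on each promoter (in %), by library, in the order along the chromosome. Circles and triangles are replicates 1 and 2, blue is control and red is ex14D. The ex14D points lie above the control points at Hoxb8, Hoxb6 and Hoxb3 and below them at Hoxb9, Hoxb5, Hoxb4 and Hoxb1.

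Peak calls showed the mark as 1 block over the cluster in both genotypes. The authors' MACS2 calls placed a single broad peak over all 9 starts in each H3K27me3 library. It was 130 kb and 137 kb long in control and 137 kb and 135 kb in ex14D, and in each library it was among the 3 widest peaks, of 9465 to 19978. Its edges were close between libraries. The 5′ edge lay within 1409 bp, between 96248566 and 96249975, and the 3′ edge within 5987 bp, between 96379823 and 96385810. The peak covered the span from the Hoxb9 window to the Hoxb1 window (95428 bp) in full in all 4 libraries, so the exact permutation test of covered length had no difference to test. A peak lay over the promoter window in all 4 libraries at all 9 genes, against 15.1% of the 24338 placed promoters. Of windows with a peak in both control libraries, 83.8% kept one in both ex14D libraries, and all 9 HoxB windows did. Where extent was alike, the deposited height of this peak was not. The fold enrichment of the peak, a mean over its length given by MACS2, was 4.47 and 3.25 in the control libraries against 6.31 and 5.44 in ex14D. Its −log10 q was 9.90 and 6.56 against 24.4 and 18.0. Both ex14D values of each lay above both control values, but the −log10 q also grows with depth and 2 libraries against 2 allow no p below 0.333. The ex14D libraries were deeper, and the part of depth in the fold enrichment was not tested. The share of all peaks that separate in this way is not given here.

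EZH2 lay over the same region in both genotypes. In the tables of EZH2 reads per gene all 9 HoxB genes are listed at 0 in all 4 libraries, as are 43.2% of the 24500 genes. On chromosome 11 these zeros form an unbroken run of 1388 genes over 66.2 Mb, from Glra1 to Ptchd3. In the same libraries EZH2 domains cover the cluster, so the zeros were not read as absence of EZH2 and no change in EZH2 reads was computed. Domains called by hiddenDomains, which are positions without a height, overlapped all 9 promoter windows in each of the 4 libraries. All 4 libraries had a domain at 10.4% of the 24338 placed promoters, and of the windows with a domain in both control libraries 61.9% kept one in both ex14D libraries.

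The EZH2 domains differed between libraries at both ends of the cluster. In control replicate 2 a single domain of 134 kb held all 9 starts. In the other 3 libraries a domain held the 8 starts from Hoxb9 to Hoxb2 and Hoxb1 had a domain of its own. The large domain was 108 kb long in control replicate 1 and 107 kb and 97 kb in ex14D, and that of Hoxb1 was 12 kb in control replicate 1 and 4 kb and 12 kb in ex14D. The gap between them, which lies between Hoxb2 and Hoxb1, was 5 kb in control replicate 1 and 7 kb and 6 kb in ex14D. The gap was thus found in both genotypes, and 1 of the control libraries lacked it. On the 5′ side, ex14D replicate 2 had a break of its own, with a domain from 96251001 to 96259000 and the large one starting at 96260001. The outer edges of the domains that held Hoxb9 and Hoxb1 varied over 13000 bp on each side. This range leaves out smaller domains beyond them. These were the one of ex14D replicate 2 from 96251001, and one of ex14D replicate 1 from 96372001 to 96373000 on the 3′ side. Domains covered 94.8% and 100% of the 95428 bp span in control and 92.7% and 93.7% in ex14D, a mean of 92928 ± 3536 bp (SD, n = 2) against 88928 ± 707 bp (SD, n = 2). The difference of -4000 bp gave a two-sided exact permutation p = 0.333, the smallest this design can give, and it was of the order of the spread between the control libraries.

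**Figure D4:**
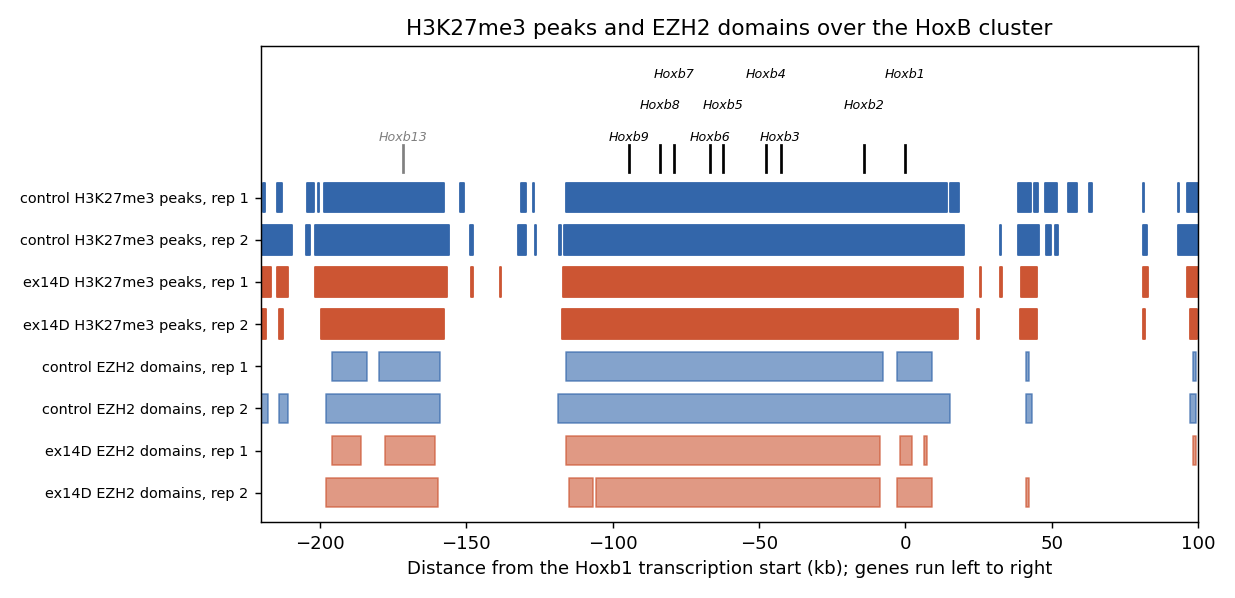
Map of the HoxB cluster with positions in kb from the Hoxb1 start, on a linear axis. Ticks at the top are gene starts, dark bars are MACS2 peaks of H3K27me3 and pale bars are EZH2 domains, 1 line per library (blue control, red ex14D). One H3K27me3 peak spans Hoxb9 to Hoxb1 in all 4 libraries, whereas EZH2 domains break between Hoxb2 and Hoxb1 in 3 of 4, and Hoxb13 lies under intervals of its own.

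Hoxb13, the gene of the tail bud and prostate that starts 76514 bp upstream of the Hoxb9 window, had its own H3K27me3 peak of 41.1 kb to 45.8 kb in each library and a change of 1.57 (SE 0.20, edgeR, adjusted p = 6.03e-06). Ttll6 further upstream was below input in all 4 libraries, with a change of -0.08 (edgeR, adjusted p = 0.936). On the other side the nearest counted promoters, Gm11529 and Skap1, started 98290 bp and 98334 bp beyond the Hoxb1 window with 1 to 11 H3K27me3 reads in a library. Both starts lay under a short H3K27me3 peak in all 4 libraries and under an EZH2 domain in 3, and Gm11529 was over 2-fold above its thin input in all 4 (log2 1.47 to 2.89). They and the next ones (Snx11, Cbx1 and Gm11517) did not pass the filter and were not tested.

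The other Hox clusters gave values of the same size, set side by side here and not tested against HoxB. In HoxA 10 of 10 promoters were called higher and the median log2 fold change was 1.76. HoxC had 7 of 8 called higher and a median of 1.43, and HoxD 7 of 8 and 1.39, with 0 promoters called lower in these clusters. Without control replicate 2 the numbers called higher were 9 of 10, 3 of 8 and 4 of 8. Promoter windows with an EZH2 domain in both libraries numbered 10 of 10, 8 of 8 and 8 of 8 in each genotype. Over all placed promoters the share was 16.8% in control and 10.4% in ex14D. Outside the Hox clusters, the genes whose log2(CPM + 1) over the 6 H3K27me3 and input libraries lay nearest to the median profile of the 9 HoxB promoters were Fgf9 (Euclidean distance 0.35), Lhx5 (0.37), Foxb2 (0.43), Nkx2-3 (0.43) and Neurog1 (0.45). The HoxB promoters themselves lay at distances from 0.38 (Hoxb7) to 3.37 (Hoxb4) from that median. Fgf9 and Lhx5 were thus nearer to it than any of the 9.

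Among 22 genes that regulate Hox genes or serve as their cofactors, the picture was mixed. Of these, 18 were tested and 7 were called higher in ex14D (background 5.83%). The caudal factor Cdx2, which opens the middle of Hox clusters, changed by 1.37 (edgeR, adjusted p = 4.12e-05). Egr2, the hindbrain activator of Hoxb2, changed by 1.06 (edgeR, adjusted p = 0.000651), less than Hoxb2 by these estimates, a difference that was not tested. Also higher were Meis2 (1.32), Evx1 (1.30), Cyp26a1 (1.07), which degrades retinoic acid, and Meis1 (0.80). Without control replicate 2, Cdx2, Egr2, Meis2, Cyp26a1 and Meis1 were no longer past the threshold (edgeR, adjusted p = 0.0507 to 0.0631), and with library size only Meis1 was at 0.35 (edgeR, adjusted p = 0.247). Pbx3, which encodes a partner of Hox proteins on DNA, was the only one called lower (background 3.25%), with 103 and 81.1 CPM in control and 11.7 and 16.0 CPM in ex14D and a log2 fold change of -2.27 (SE 0.35, edgeR, adjusted p = 5.65e-05).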

How the data were processed

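According to the submitters' processing notes and the methods, reads were trimmed (Trimmomatic), aligned to mm10 (GRCm38) with Bowtie2 (Bowtie in the methods) and counted with HTSeq. The authors deposited whole-read counts per gene without normalization, in a 1 kb window centred on the 5′ most TSS for H3K27me3 and input. Rows of reads on no gene (92.4% to 98.1% of reads in H3K27me3 and input libraries, counting ambiguous reads with them) stayed out of library sizes. MACS2 broad peaks were called per library, with the control not stated, and the fold enrichment and −log10 p and q deposited by the authors were used as given. The deposited peak score was not used. EZH2 domains (hiddenDomains) were deposited without a posterior probability. H3K27me3 domains were not used, because some run past the ends of GRCm38 chromosomes.

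Counts of the 4 H3K27me3 libraries were compared with edgeR 4.0.16 in R 4.3.3 (TMM; filterByExpr; the quasi-likelihood F test, adjusted by Benjamini-Hochberg over all promoters tested). Standard errors are approximate. Printed CPM were not TMM-scaled, fold changes were. DESeq2 1.42.0 was an alternative. The procedure was run on simulated counts with the same dispersion for all promoters and as many promoters raised as lowered. These settings are simpler than the data, and the outcome is not given here. The windows that were counted are not in the files used here, so starts and windows were placed from curated RefSeq transcripts (24338 of 24500 genes), and for genes with several starts, such as Hoxb3, the counted window may differ. Overlaps of at least 1 bp counted. Other steps ran in Python 3.11.15 with pysam 0.24.0, scipy 1.17.1 and pandas 2.3.3. Libraries of 1 genotype differed by more than sampling noise (chi-square per degree of freedom 2.31 in control and 1.95 in ex14D). The labels do not say whether same-numbered libraries were prepared together. Their deviations had a correlation of -0.0990 across promoters, a value that cannot settle this.

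Genes named were the 9 members, the 5 counted genes nearest to the cluster on each side, the 5 genes outside Hox clusters nearest in profile, and those of the 22 regulators past the threshold (1 of them is not reported here), with the other Hox clusters as medians. Genes in the span other than the 9 were named after their values were seen. Members and lists were chosen with earlier results of these data known.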

Additional observations from a re-analysis of the deposited data

How the results depend on the processing

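All 9 HoxB promoters were called higher in ex14D under 4 other scalings, DESeq2, no filter on low counts and the replicate block, and 0 were called lower. With the replicate number as a block the median log2 fold change was 1.66 and all promoters called numbered 765 higher and 411 lower, against 867 and 483 without it. With library size only the HoxB median was 1.20, and the calls over all promoters turned to 398 higher and 2130 lower, with all counted reads as library size to 618 and 581. Scaling on unmarked promoters gave 1217 and 351, and DESeq2 657 and 266 with 16894 promoters given no adjusted p. With 1 library left out the HoxB median was 1.42 to 1.77 and the number called was 6 to 9. The 6 came without control replicate 2, when 0.971% of all promoters tested were called higher. These fits assume that the lone library varies like those of the other genotype. With CPM over all counted reads the median enrichment over input was 4.12 in control and 5.67 in ex14D. EZH2 domains covered 90.7% of the span in ex14D when it was extended by 10 kb on each side. Subtracting the log2 ratio of the inputs moved Hoxb5 to 2.74, Hoxb3 to 2.39, Hoxb9 to 1.75, Hoxb7 to 1.38 and Hoxb2 to 1.26, values that rest on 13 to 38 input reads. The alternatives for EZH2 counts were not run because the genes are listed at 0. The other values of the 9 promoters and of the intervals over them kept their direction and their side of the threshold. The same alternatives were run for 13 named genes outside the 9 that were called, a choice made after seeing the data. Of these, 5 (Hoxb13, Hoxb5os, Mir10a, Evx1 and Pbx3) stayed past the threshold in every setting with a test, and 8 did not. The cause of the shifts was not tested.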

Other observations

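Noncoding genes within and beside the cluster were counted as well. Inside the span, the antisense transcript Hoxb5os had 380 and 400 CPM of H3K27me3 in control and 890 and 1191 CPM in ex14D, a log2 fold change of 1.86 (edgeR, Benjamini-Hochberg adjusted p = 1.81e-06). The microRNA gene Mir10a, between Hoxb5 and Hoxb4, had 237 and 302 CPM in control and 626 and 928 CPM in ex14D, a change of 1.97 (edgeR, adjusted p = 1.81e-06). Both changes lay within the range of the 9 coding genes and stayed past the threshold under the alternatives run. Upstream of Hoxb9, within the same H3K27me3 peak, the CPM of Mir196a-1 and Gm53 were lower than those of Hoxb9 in each library. In control replicate 2 both were above Hoxb4, which had 216 CPM. Mir196a-1, 5666 bp from the Hoxb9 window, had 121 and 236 CPM in control and 316 and 248 CPM in ex14D (change 1.08, edgeR, adjusted p = 0.0031), a value within the range of the 9. With library size only it was 0.63 (edgeR, adjusted p = 0.0691). Gm53, 19170 bp away, had 209 and 230 CPM in control and 316 and 216 CPM in ex14D. Its genotypes overlapped in CPM. The change was 0.72 (edgeR, adjusted p = 0.0305) after TMM and 0.28 (edgeR, adjusted p = 0.395) with library size only. Gm11538, beside Hoxb13, had a change of 0.75 (edgeR, adjusted p = 0.0119), and of 0.31 (edgeR, adjusted p = 0.258) with library size only. Without ex14D replicate 1, Mir196a-1, Gm53 and Gm11538 were at 0.91, 0.43 and 0.78 and none was past the threshold (edgeR, adjusted p = 0.12, 0.619 and 0.154).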
